A study of Mus musculus with 10 samples.

Results

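Translation initiation factors bring a ribosome to the start codon of an mRNA, and elongation factors then carry it along the coding sequence. The genes for these factors were taken from the deposited expression table as every symbol beginning with Eif or Eef and a digit. Of 70 such symbols 5 were left out, namely the eIF2 kinases and the Y-linked copy of an eIF2 subunit gene, so that 65 of 19782 listed genes remained. After a filter on low counts 61 of the 65 were tested among 12505 genes, and 4 were not.

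RNA came from microglia, which are brain macrophages, sorted as CD45low CD11b+ cells from mouse hippocampus and sequenced in 10 libraries. Repopulated 5xFAD mice (3 libraries) were 4 months old when they began 1 month on chow with 290 mg/kg PLX3397, and then spent 1 month on normal diet while microglia returned. PLX3397 inhibits CSF1R, a receptor whose signal microglia need to live. Control 5xFAD mice (3 libraries) and WT mice (4 libraries) were on normal diet, and the labels do not give their ages. Both 5xFAD groups carry mutant human transgenes that model inherited Alzheimer disease, and the Thy1 promoter drives these in neurons, not in microglia. Labels do not say whether the libraries of a group came from separate animals, so p-values measure only sample-to-sample spread, which may be technical. In sorted bulk samples, fewer cells of a type and less RNA per cell cannot be told apart.

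Initiation begins when eIF2 delivers the initiator tRNA to the small ribosomal subunit, with eIF1, eIF1A and the large eIF3 complex bound beside it. The eIF4 factors recognise the mRNA cap and unwind the leader, and eIF2B recharges eIF2 after each round. In elongation eEF1A brings each charged tRNA, the eEF1B subunits recharge eEF1A, and eEF2 moves the ribosome on by a codon. Cells set the pace through phosphorylation: eIF2 kinases slow initiation under stress, mTORC1 releases eIF4E from its binding proteins, and eEF2 kinase slows eEF2. In microglia, as in other macrophages, activation changes protein synthesis, and RNA levels do not measure the activity of any of these proteins.

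Library totals lay between 18501126 and 23286808 estimated counts. Y-linked transcripts summed to between 5.12 and 16.01 CPM in control 1, control 3 and WT 2, against 342 to 484 CPM in the other 7 libraries, so control 2 is the only library of its group with them. The 10 microglia markers summed to between 43102 and 58141 CPM in repopulated libraries, 53486 to 58418 CPM in 5xFAD control libraries and 49527 to 60883 CPM in WT libraries. Of these 10 markers 5 were lower in 5xFAD control than in WT libraries, Tmem119 among them (log2 fold change -1.29). WT 3 stood apart by markers of other cells: erythrocyte markers summed to 281 CPM there and to at most 20.7 CPM in every other library. Astrocyte markers summed to 555 CPM in WT 3 and at most 314 CPM elsewhere, and oligodendrocyte markers to 138 CPM and at most 88.9 CPM. Neuron markers summed to 65.4 CPM in WT 3 and at most 13.1 CPM elsewhere. Endothelial markers were lowest in WT 3, at 14.9 CPM against at least 27.1 CPM elsewhere. Neutrophil markers summed to between 67.0 and 167 CPM in repopulated libraries, to 318.5 CPM in control 2 against 17.6 and 24.8 CPM in the other 5xFAD control libraries, and to between 32.2 and 251 CPM in WT libraries. All 9 neuron markers together summed to between 5.30 and 11.2 CPM in repopulated, 4.38 and 8.11 CPM in 5xFAD control and 11.1 and 65.4 CPM in WT libraries. Markers of border macrophages and monocytes summed to between 50.2 and 73.4 CPM in repopulated, 74.5 and 166 CPM in 5xFAD control and 55.9 and 124 CPM in WT libraries. The 4 T and B cell markers were near absent everywhere, at 0.353 CPM or less in sum. The part of these differences in the results below was not tested, except where a value without certain libraries is given.

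Levels between genes are given as TPM, which is scaled for transcript length. The 61 tested genes averaged between 0.523 and 1744 TPM over the 10 libraries, with a median of 48.0 TPM. Eef1a1, which encodes the main eEF1A isoform, held 28.9% of the summed mean TPM of the 65 genes. It was followed by the eIF4A helicase gene Eif4a2 at 298 TPM, Eif1 and Eif5a at 254 TPM each, and Eef2 at 192 TPM. At the low end Eif3j2 averaged 0.523 TPM, and its close copy Eif3j1 averaged 40.4 TPM.

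As a share of all estimated counts, the 65 genes held 0.725% ± 0.0115 in repopulated, 0.773% ± 0.0153 in 5xFAD control and 0.617% ± 0.0126 in WT libraries (SD, n = 3, 3 and 4). The 3 groups did not overlap, since the lowest and highest shares were 0.712% and 0.733% in repopulated, 0.757% and 0.787% in 5xFAD control and 0.602% and 0.632% in WT libraries. Eef1a1 by itself held 0.190% ± 0.00745 in repopulated, 0.241% ± 0.00814 in 5xFAD control and 0.112% ± 0.0117 in WT libraries. Without Eef1a1 the other 64 genes held 0.536% ± 0.0128 in repopulated, 0.532% ± 0.0114 in 5xFAD control and 0.505% ± 0.00657 in WT libraries. So most of the distance between 5xFAD control and WT libraries in this share lay in a single gene.

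**Figure D1:**
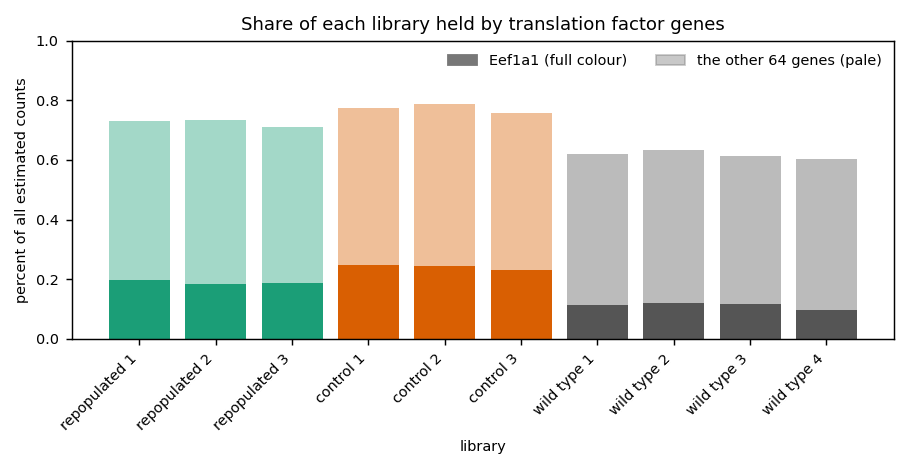
Percent of all estimated counts held by Eef1a1 (full colour) and by the other 64 translation factor genes (pale), with a bar for each of the 10 libraries. The full bars are tallest in the 3 control 5xFAD libraries, and Eef1a1 accounts for 31.2% of the translation factor counts there on average, 26.2% in repopulated and 18.2% in WT libraries.

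Many mRNAs for elongation factors, some for eIF3 subunits and those for eIF4B belong to the TOP class, whose leaders start with a C and a run of pyrimidines and whose translation depends on mTORC1. RefSeq promoter windows on GRCm38.p6, from 250 bases before to 50 bases after an annotated start, were found for 50 of the 65 genes. A C followed by at least 4 pyrimidines at the annotated start was present in 2 of these 50, Eif3f and Eif2s3x, which is 4.0%, against 2.49% of 27025 windows of all genes. The 30-base windows below are shown because they hold the start of genes whose levels the results turn on. Capitals mark the annotated start base, or the whole pyrimidine tract where that base was a C with such a run.
Eif3f, chr7:108934405-108934434, plus strand: tctaggctctCTCTCTTTCTCggcaagatg
Eif2s3x, chrX:94212632-94212661, minus strand: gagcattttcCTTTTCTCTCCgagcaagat
Eef1a1, chr9:78481705-78481734, minus strand: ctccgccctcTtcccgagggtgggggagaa
Eif4b, chr15:102073763-102073792, plus strand: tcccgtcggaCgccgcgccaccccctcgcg
Where no such tract stands at the annotated start, as in the Eef1a1 and Eif4b windows, this says only that these letters are not at that base. The annotated starts of Eef1b2 and Eef2, not shown, held no such tract either.

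CACGTG, the E-box bound by MYC and by TFEB and its relatives, was searched on both strands, its reverse complement being itself. It stood in 13 of the 50 windows (26.0%), against 7.24% of all 27025. Eef1akmt4 and the readthrough gene Eef1akmt4-ece2 share a start and count in both. Of the 9 genes with a window that differed between 5xFAD control and WT, 5 held CACGTG, and of the 38 that did not pass 7 held it. The genes were not chosen for this motif, and a match is not evidence of binding. The 27025 windows were not limited to genes tested here, and shares of the motifs among tested genes were not taken. Windows of 40 bases around the motif, or 30 for Eif3a where it lies after the start, are shown with the motif in capitals. They cover 4 of those 5 genes and Eef2, which did not pass. The remaining gene of the 5, not shown, is Eef2k, the only gene that was lower in 5xFAD control.
Eif3f, chr7:108934330-108934369, plus strand: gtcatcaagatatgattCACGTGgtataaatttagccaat
Eif3k, chr7:28981910-28981949, minus strand: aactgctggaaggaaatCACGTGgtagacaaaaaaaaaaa
Eif3a, chr19:60790654-60790683, minus strand: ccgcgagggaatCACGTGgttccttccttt
Eif4a1, chr11:69672590-69672629, minus strand: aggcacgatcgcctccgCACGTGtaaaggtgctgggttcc
Eef2, chr10:81176571-81176610, plus strand: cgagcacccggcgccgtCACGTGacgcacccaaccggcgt
CCGGAAG, the core of ETS factor sites, stood on either strand in 14 of the 50 windows (28.0%), against 9.12% of all, but in 1 of the 9 genes that differed and in 13 of the 38 that did not pass. TGATGNAAT, a form of the ATF4 composite site, stood in 0 of the 50 windows and in 0.969% of all.

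The comparison of 5xFAD control with WT microglia asks how these genes stand in untreated animals of the disease model. In 5xFAD control libraries 14 of the 61 tested genes were higher than in WT, 1 was lower and 46 did not pass (edgeR quasi-likelihood test, Benjamini-Hochberg adjusted p under 0.05 over 12505 genes). Over all tested genes 10.1% were higher and 8.04% lower, 18.1% together. The median log2 fold change was 0.24 over the 61 genes and -0.06 over all tested genes, and 50 of the 61 lay above 0, against 45.7% of all. The higher genes included 4 of 5 tested eEF1 genes and 6 of 14 eIF3 genes, and none of the eIF2B, cap-binding or eIF4E-binding protein genes. Fold changes of all 61 genes are drawn by role in the plot with 3 panels, and the 15 that passed are drawn library by library.

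Of the 14 higher calls, 7 held under all 21 alternative settings, namely Eef1a1, Eef1b2, Eef1g, Eif1a, Eif3a, Eif3f and Eif3h. With control 1 or WT 4 left out 9 genes were higher, and without the 3 libraries low in Y-linked transcripts, which leaves control 2 alone in its group, 9 were.

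**Figure D2:**
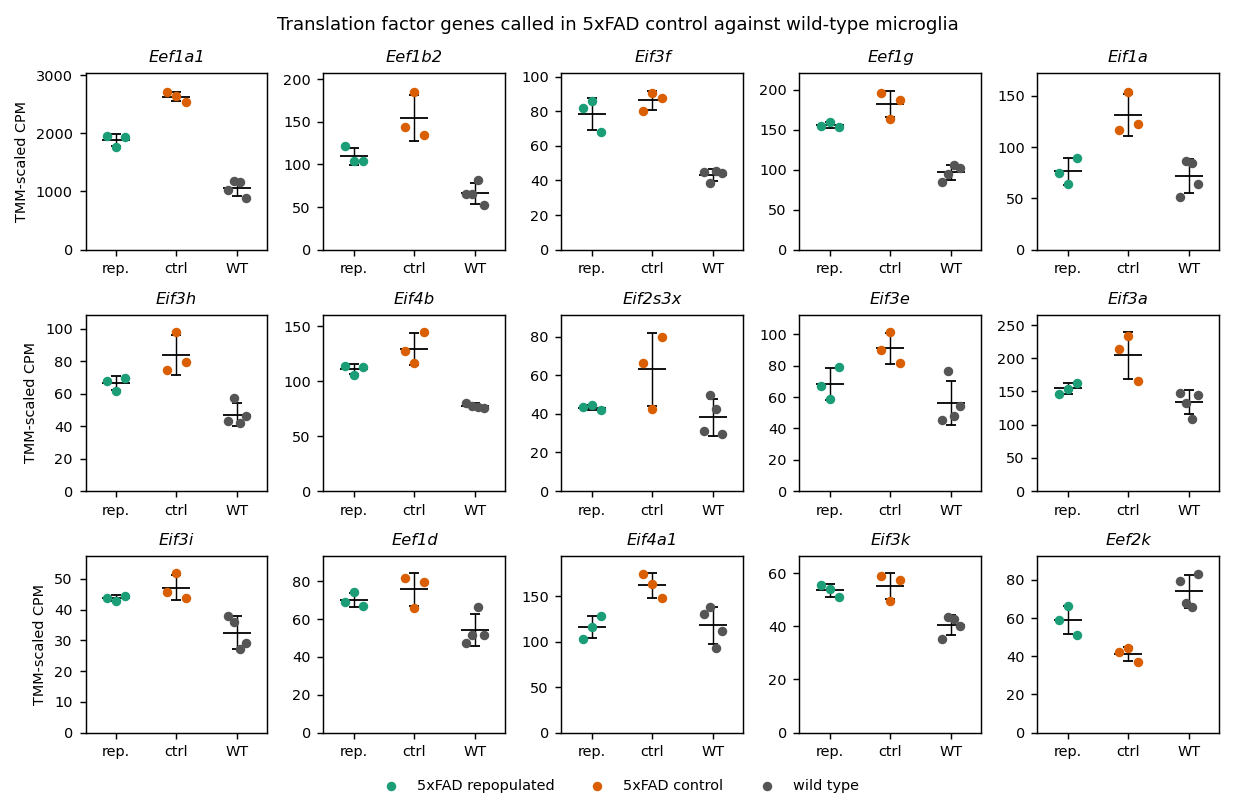
TMM-scaled CPM of the 15 translation factor genes with adjusted p under 0.05 in 5xFAD control against WT, in repopulated 5xFAD (rep.), 5xFAD control (ctrl) and WT libraries. Points are libraries, the horizontal mark is the group mean and bars are 1 SD; for Eef1a1 the control points lie at 2541 CPM or more and the WT points at 1172 CPM or less.

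**Figure D3:**
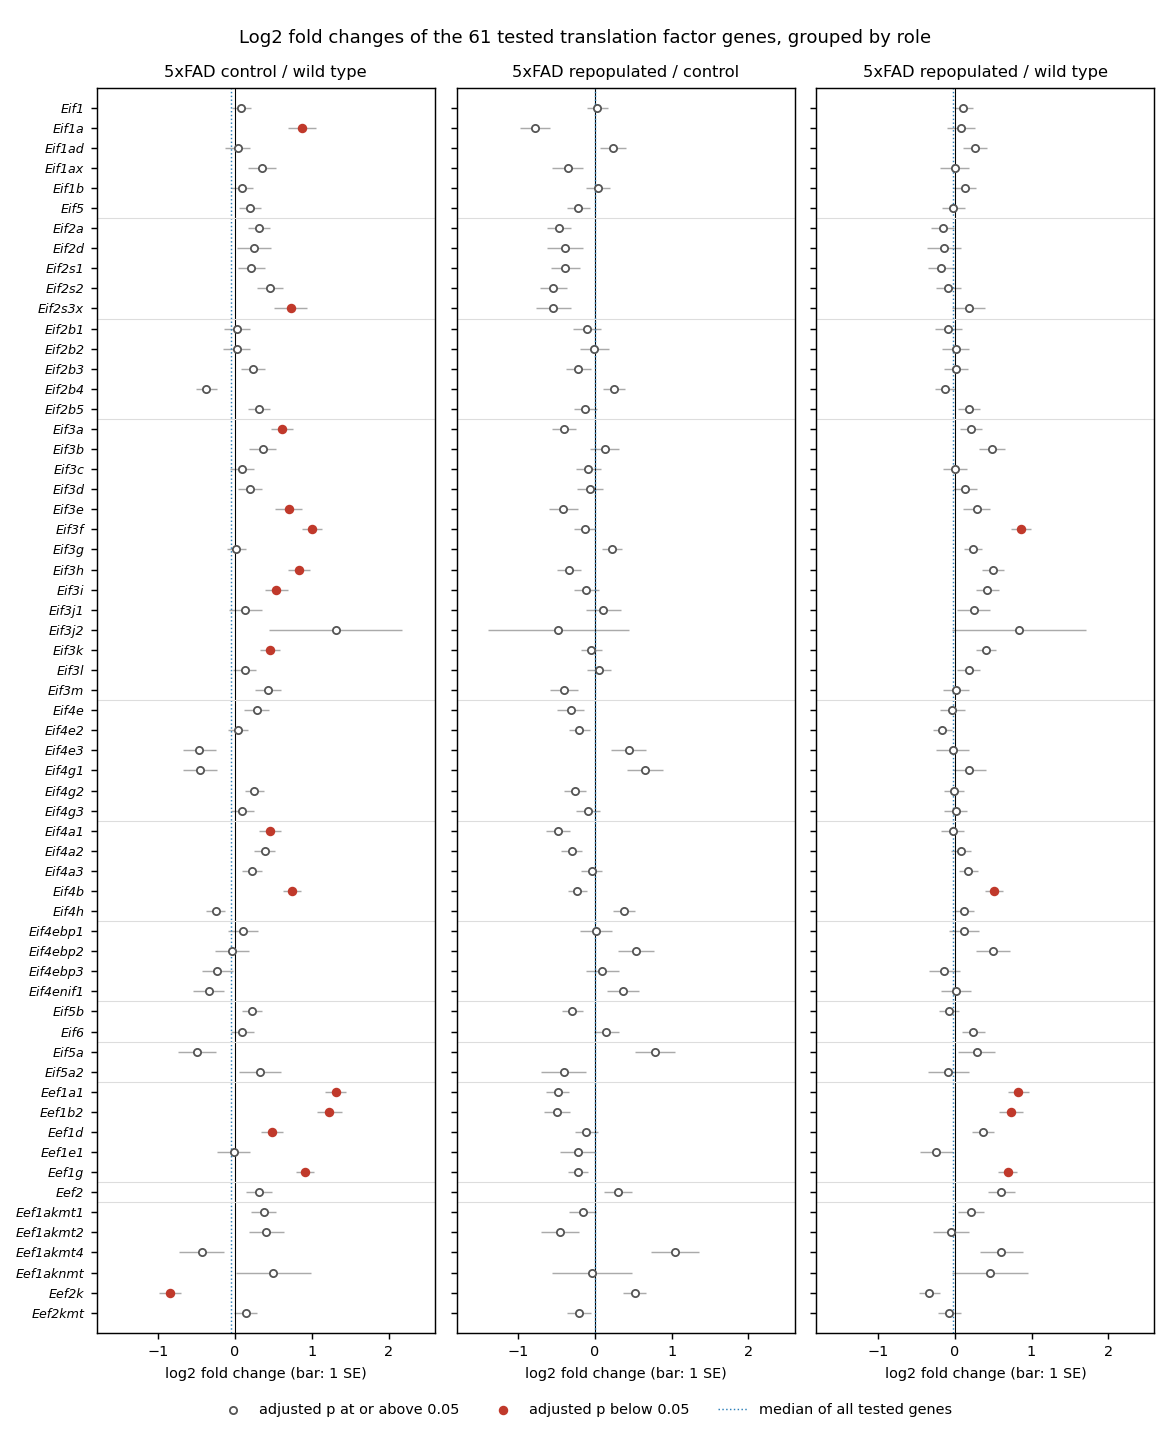
Log2 fold change with 1 SE of the 61 tested genes in the 3 comparisons, ordered by role from start codon scanning at the top to elongation factor modifying enzymes at the bottom; filled points have adjusted p under 0.05. Filled points number 15 in the left panel, 0 in the middle panel and 5 in the right panel.

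Among the genes that passed, Eef1a1 and Eef1b2 had the largest log2 fold changes. Eef1a1 had 1948, 1758 and 1934 CPM in repopulated, 2708, 2646 and 2541 CPM in 5xFAD control and 1024, 1172, 1159.9 and 885 CPM in WT libraries. The 3 groups were fully separate, with 5xFAD control highest and repopulated in between. Its log2 fold change in 5xFAD control over WT was 1.31 (SE 0.14, edgeR adjusted p = 1.3e-05), a 2.48-fold difference. The deposited counts of Eef1a1 were not whole in 5 of 10 libraries, so some of its reads may have been divided among similar sequences.

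Eef1b2, which encodes the nucleotide exchange subunit that recharges eEF1A, had 121, 104 and 104 CPM in repopulated, 145, 185 and 134 CPM in 5xFAD control and 65.0, 65.5, 81.4 and 52.2 CPM in WT libraries. Here too no 2 groups overlapped. The log2 fold change in 5xFAD control over WT was 1.23 (SE 0.16, edgeR adjusted p = 9.8e-05).

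Eef1g, the scaffold subunit of eEF1B, had 155, 159.8 and 153 CPM in repopulated, 196, 164 and 187 CPM in 5xFAD control and 85.2, 94.4, 106 and 102 CPM in WT libraries. Each 5xFAD library of either group was above each WT library. Its log2 fold change in 5xFAD control over WT was 0.91 (SE 0.12, edgeR adjusted p = 0.000117).

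Eef1d, the other exchange subunit, passed with a smaller log2 fold change of 0.48 (SE 0.14, edgeR adjusted p = 0.0292), and its groups overlapped because WT 3 (66.5 CPM) exceeded control 2 (65.9 CPM). The call was lost under 10 of 21 alternatives, among them without control 1, control 3, WT 1, WT 2 or WT 4. Eef1e1, named with the family but known for a scaffold of the tRNA synthetase complex, had a log2 fold change of -0.02 (edgeR adjusted p = 0.97). Eef1a2, the isoform of neurons and muscle, was too low to test, with 21 counts summed over repopulated, 3 over 5xFAD control and 21 over WT libraries.

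Eef2, the translocase, had 422, 479 and 401 CPM in repopulated, 369, 259 and 430.1 CPM in 5xFAD control and 344, 233, 269 and 292 CPM in WT libraries. The 5xFAD control libraries overlapped the WT range, with control 2 the lowest of its group. Its log2 fold change in 5xFAD control over WT was 0.31 (SE 0.17, edgeR adjusted p = 0.236), which did not pass. After correction for GC content and length it was 0.55 and passed (edgeR adjusted p = 0.00341), and without the 3 libraries low in Y-linked transcripts it was -0.21 (edgeR adjusted p = 0.553).

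Eef2k, whose kinase phosphorylates and slows eEF2, was the only gene of the 61 that was lower in 5xFAD control. It had 59.1, 66.1 and 51.4 CPM in repopulated, 42.1, 44.1 and 37.2 CPM in 5xFAD control and 79.3, 67.9, 65.6 and 83.3 CPM in WT libraries. Every 5xFAD control library was below every other library, and repopulated 2 just exceeded the lowest WT library. The log2 fold change in 5xFAD control over WT was -0.85 (SE 0.14, edgeR adjusted p = 0.000929), and without the 3 libraries low in Y-linked transcripts it was -0.78 and did not pass (edgeR adjusted p = 0.0652).

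Among the other tested enzymes that modify elongation factors, 5 methyltransferase genes for eEF1A or eEF2, none passed. Eef1akmt4 had log2 fold changes of -0.43 in 5xFAD control over WT and 1.04 in repopulated over 5xFAD control (edgeR adjusted p = 0.326 and 0.115). In the latter comparison every repopulated library was above every 5xFAD control library, and Eef1akmt4 passed in a fit of those groups alone. Its readthrough neighbour Eef1akmt4-ece2 was not tested, with 0 counts in repopulated and 5xFAD control libraries and 21 summed over WT libraries.

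Of the 6 genes for start codon scanning, Eif1a was higher in 5xFAD control and the other 5 did not pass. Eif1a encodes an eIF1A isoform, which holds the scanning ribosome open. It had 75.3, 64.1 and 89.6 CPM in repopulated, 117, 154 and 123 CPM in 5xFAD control and 51.8, 87.0, 84.5 and 64.5 CPM in WT libraries. The 5xFAD control libraries were above all others, and repopulated and WT libraries overlapped. The log2 fold change in 5xFAD control over WT was 0.87 (SE 0.18, edgeR adjusted p = 0.00445). Eif1ax, the X-linked gene for the other isoform, had a log2 fold change of 0.35 (edgeR adjusted p = 0.211). Eif1, which guards the accuracy of start codon choice, had 169, 171 and 173 CPM in repopulated, 159, 172 and 172 CPM in 5xFAD control and 146, 138, 189 and 158 CPM in WT libraries, so all groups overlapped.

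Of the 5 genes grouped under eIF2 and initiator tRNA delivery, 1 passed. Besides the eIF2 subunit genes Eif2s1, Eif2s2 and Eif2s3x this group holds Eif2a and Eif2d, which do not encode subunits of eIF2. Eif2s1, the subunit whose phosphorylation slows initiation under stress, had 84.2, 90.1 and 109 CPM in repopulated, 119, 133 and 119 CPM in 5xFAD control and 78.7, 117, 139.9 and 90.5 CPM in WT libraries. WT 3 exceeded every 5xFAD library, and the log2 fold change in 5xFAD control over WT was 0.21 (SE 0.18, edgeR adjusted p = 0.436). Eif2s2, the subunit that joins eIF2 to eIF5 and eIF2B, had 162, 144 and 192 CPM in repopulated, 240.2, 243 and 241 CPM in 5xFAD control and 156, 217, 201 and 130.1 CPM in WT libraries. Its 5xFAD control libraries were close together and above all others, but the log2 fold change over WT of 0.46 did not pass (SE 0.17, edgeR adjusted p = 0.0706). It passed by DESeq2 and, in edgeR, without WT 2 or WT 3.

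Eif2s3x, the X-linked gene for the subunit that binds GTP, was called higher at 0.72 (SE 0.21, edgeR adjusted p = 0.0278). It had 43.5, 44.4 and 41.9 CPM in repopulated, 66.5, 42.6 and 79.96 CPM in 5xFAD control and 31.2, 49.6, 42.5 and 29.6 CPM in WT libraries. The highest libraries of the 5xFAD control and WT groups were those low in Y-linked transcripts, and control 2, which has them, was level with WT 3. With that status as a term in the model the log2 fold change was 0.43 and did not pass (edgeR adjusted p = 0.127), nor did it without control 1, control 3, WT 1 or WT 4.

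None of the 5 genes for eIF2B, the factor that recharges eIF2, passed. Eif2b5, the catalytic subunit, had 30.1, 30.8 and 27.0 CPM in repopulated, 34.5, 31.7 and 29.5 CPM in 5xFAD control and 23.5, 26.8, 23.5 and 29.2 CPM in WT libraries. Although 5xFAD control libraries lay just above WT libraries, the log2 fold change was 0.31 (SE 0.14, edgeR adjusted p = 0.157). Eif2b4, a regulatory subunit, had all 5xFAD control libraries below WT, at -0.37, and did not pass (edgeR adjusted p = 0.0706).

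The eIF3 complex joins the small subunit to the mRNA and holds other initiation factors in place. All 14 of its tested genes had log2 fold changes above 0 in 5xFAD control over WT, and 6 passed, with a median of 0.44 over the 14. Of the 8 genes for the structural octamer core, Eif3a, Eif3e, Eif3f, Eif3h and Eif3k passed and Eif3c, Eif3l and Eif3m did not. Outside the core Eif3i passed, and Eif3b, Eif3d, Eif3g, Eif3j1 and Eif3j2 did not. Since subunits of 1 complex share libraries and scaling, the common sign is a description.

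Eif3f, a core subunit with an MPN fold, had 81.8, 85.9 and 68.3 CPM in repopulated, 80.1, 90.8 and 87.9 CPM in 5xFAD control and 44.6, 38.3, 45.8 and 44.2 CPM in WT libraries. Both 5xFAD groups lay above WT and overlapped each other. The log2 fold change in 5xFAD control over WT was 1.00 (SE 0.13, edgeR adjusted p = 9.9e-05).

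Eif3h, the other MPN subunit, had 68.0, 61.5 and 69.9 CPM in repopulated, 74.6, 97.7 and 79.3 CPM in 5xFAD control and 43.2, 57.1, 41.7 and 46.1 CPM in WT libraries. No 2 groups overlapped, and the log2 fold change in 5xFAD control over WT was 0.83 (SE 0.15, edgeR adjusted p = 0.00114).

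Eif3a, the largest scaffold subunit, had 147, 154 and 163 CPM in repopulated, 213, 234 and 166 CPM in 5xFAD control and 148, 133, 108 and 145 CPM in WT libraries. The 5xFAD control libraries were above WT, while repopulated and WT libraries overlapped. Its log2 fold change in 5xFAD control over WT was 0.61 (SE 0.15, edgeR adjusted p = 0.00949).

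Eif3e, the core subunit once named Int6, had 67.2, 58.9 and 79.0 CPM in repopulated, 90.3, 101 and 81.7 CPM in 5xFAD control and 45.4, 76.6, 48.1 and 54.3 CPM in WT libraries. WT 2 was high for its group and still below every 5xFAD control library. The log2 fold change was 0.70 (SE 0.18, edgeR adjusted p = 0.0136), and without control 2 it was 0.62 and did not pass (edgeR adjusted p = 0.0611).

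Eif3i and Eif3k had smaller log2 fold changes in 5xFAD control over WT, 0.54 and 0.45 (edgeR adjusted p = 0.0211 and 0.0267). The call was lost under 7 of 21 alternatives for Eif3i, among them without control 1, control 2 or WT 4, and under 8 for Eif3k, among them without control 1, control 3, WT 1 or WT 4. At the other end of the complex Eif3g, which bridges to eIF4B, had a log2 fold change of 0.02 (edgeR adjusted p = 0.942). The complex thus spanned log2 fold changes of 0.02 to 1.00 among genes above 1 TPM.

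**Figure D4:**
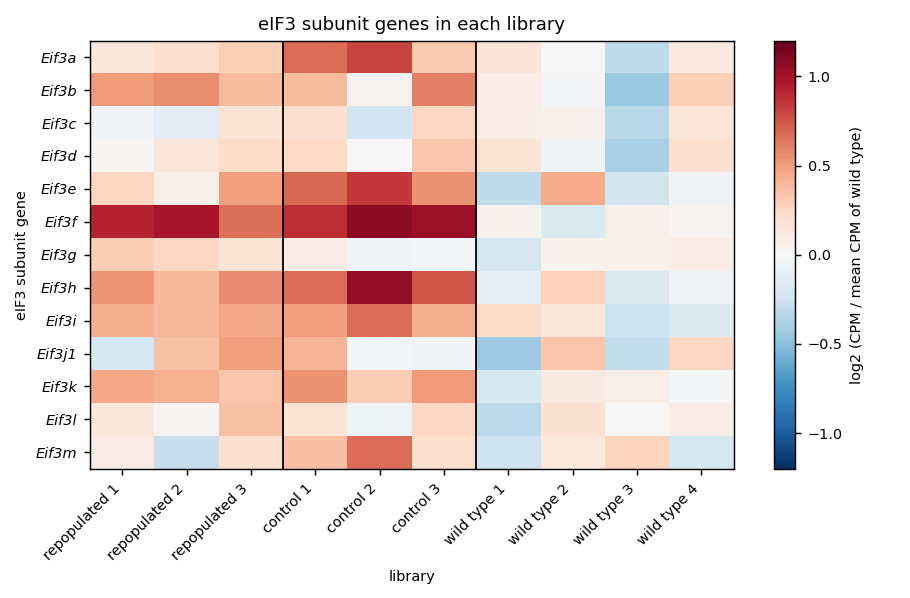
Log2 ratio of CPM in each library to the mean CPM of WT libraries for 13 of the 14 eIF3 genes (Eif3j2 is left out for its low counts, 0 of them in WT 1), with repopulated, 5xFAD control and WT libraries from left to right. The Eif3f row is red in all 6 libraries from 5xFAD mice, and the Eif3g row is pale throughout.

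In the cap-binding group none of 6 tested genes passed, though Eif4e3 did after correction for GC content and length. Eif4e, which binds the mRNA cap, had 162, 131 and 162 CPM in repopulated, 187, 214 and 164 CPM in 5xFAD control and 127, 184, 181 and 128 CPM in WT libraries, with 5xFAD control and WT libraries overlapping. The log2 fold change in 5xFAD control over WT was 0.28 (SE 0.16, edgeR adjusted p = 0.25). Eif4g1, the scaffold between cap and ribosome, had 44.1, 58.9 and 41.1 CPM in repopulated, 35.3, 19.9 and 36.7 CPM in 5xFAD control and 50.04, 34.5, 36.1 and 47.8 CPM in WT libraries. Its log2 fold change of -0.46 (SE 0.22, edgeR adjusted p = 0.164) rested largely on control 2, without which it was -0.22. With control 2 as the only library of its group, when those low in Y-linked transcripts were left out, it was -1.16. Eif4e1b, the germline cap-binding gene, had 0 counts in every library.

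Of the eIF4A helicases and their cofactors, Eif4b and Eif4a1 were higher in 5xFAD control and 3 of the 5 tested genes did not pass. Eif4b, whose protein stimulates the helicase, had 113, 105 and 113 CPM in repopulated, 127, 116 and 145 CPM in 5xFAD control and 80.4, 77.8, 76.9 and 75.2 CPM in WT libraries. No 2 groups overlapped, WT libraries lay close together, and the log2 fold change was 0.74 (SE 0.12, edgeR adjusted p = 0.000499). Without the 3 libraries low in Y-linked transcripts it was 0.60 and did not pass (edgeR adjusted p = 0.0537).

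Eif4a1, the main helicase, had 103, 116 and 128 CPM in repopulated, 174, 164 and 147 CPM in 5xFAD control and 130.1, 138, 92.6 and 111 CPM in WT libraries. The 5xFAD control libraries were the highest, but the log2 fold change of 0.45 (SE 0.15, edgeR adjusted p = 0.0437) was lost under 14 of 21 alternatives, including the leaving out of any 5xFAD library, WT 3 or WT 4. Eif4a2, its more abundant relative here, had 426, 406 and 395 CPM in repopulated, 471, 591 and 453 CPM in 5xFAD control and 349, 427, 365 and 407 CPM in WT libraries. Despite the separation of 5xFAD control from WT libraries it did not pass, at 0.38 (SE 0.13, edgeR adjusted p = 0.0555). It passed under 4 of 21 alternatives, among them DESeq2's size factors, DESeq2's test and the leaving out of WT 2. Eif4a3l1, a copy of the splicing-linked helicase gene Eif4a3, was too low to test, with 8, 0 and 37 counts summed over repopulated, 5xFAD control and WT libraries.

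The eIF4E-binding proteins of Eif4ebp1, Eif4ebp2 and Eif4ebp3 hold eIF4E away from eIF4G until mTORC1 phosphorylates them. Eif4enif1, which is not one of these genes, was also placed in this group, and none of the group's 4 genes passed. Eif4ebp1 had 26.8, 31.0 and 30.9 CPM in repopulated, 31.9, 19.9 and 36.3 CPM in 5xFAD control and 22.4, 31.4, 27.1 and 28.0 CPM in WT libraries. Eif4ebp2 had 40.6, 41.2 and 28.4 CPM in repopulated, 24.3, 22.3 and 29.4 CPM in 5xFAD control and 21.6, 27.3, 18.3 and 36.9 CPM in WT libraries. Eif4ebp3 had 9.08, 9.06 and 7.60 CPM in repopulated, 8.22, 8.56 and 7.30 CPM in 5xFAD control and 9.98, 9.07, 8.79 and 9.88 CPM in WT libraries. Of these 3 genes Eif4ebp3 had all 5xFAD control libraries below WT, with a log2 fold change of -0.23 (SE 0.20, edgeR adjusted p = 0.462).

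Eif5a did not pass in any comparison by edgeR's test over the 10 libraries. Its protein, which carries the hypusine modification, relieves ribosomes stalled at proline runs. It had 201, 209.6 and 222 CPM in repopulated, 139, 61.2 and 168 CPM in 5xFAD control and 158, 154, 201 and 178 CPM in WT libraries, and its deposited counts were not whole in any library. Every repopulated library was above every 5xFAD control library and above WT, repopulated 1 only just, and control 2 was far below the rest. In 5xFAD control over WT the log2 fold change was -0.50 (SE 0.24, edgeR adjusted p = 0.174), or -0.17 without control 2. Without the 3 libraries low in Y-linked transcripts, where control 2 is the only one of its group, it was -1.54 and passed (edgeR adjusted p = 0.00245). Eif6, which keeps free large subunits from joining, had 76.1, 78.2 and 86.9 CPM in repopulated, 70.7, 64.6 and 82.2 CPM in 5xFAD control and 62.2, 80.1, 55.0 and 74.7 CPM in WT libraries. Its groups overlapped, at a log2 fold change of 0.09 (edgeR adjusted p = 0.709), and Eif5b, which joins the subunits, did not pass either at 0.23 (edgeR adjusted p = 0.248).

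The comparison of repopulated with control 5xFAD microglia asks whether depletion and return of the cells went with other levels. No gene of the 61 passed in either direction by edgeR's quasi-likelihood test, where 0.352% of all tested genes were higher and 0.216% lower. At an unadjusted p under 0.05, 6 of the 61 lay higher and 13 lower, against 9.75% and 8.78% of all tested genes. DESeq2 called 2 higher and 4 lower, limma-voom called 0, and a fit of these groups without WT libraries called 2 higher and 3 lower. The median log2 fold change in repopulated over 5xFAD control was -0.12 over the 61 genes and -0.00 over all, and 20 of the 61 lay above 0, against 49.9% of all. Ranges did not overlap for 9 genes with repopulated libraries above and for 20 with repopulated libraries below, against 15% and 15.7% of all tested genes.

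By p the nearest to a call was Eif1a, at a log2 fold change of -0.78 in repopulated over 5xFAD control (SE 0.20, edgeR adjusted p = 0.0782), with every repopulated library (at most 89.6 CPM) below every 5xFAD control library (at least 117 CPM). It passed without WT 1 or WT 3, whose omission also changed the genes tested, with edgeR adjusted p = 0.0479 and 0.0436. Eif1a passed as well by DESeq2 (adjusted p = 0.00649), with no filter on low counts and in the fit of these groups alone. Eef1a1, Eef1b2 and Eif4a1 had log2 fold changes of -0.49, -0.50 and -0.48 (edgeR adjusted p = 0.121, 0.151 and 0.139), each with repopulated libraries wholly below 5xFAD control libraries. By DESeq2 Eef1a1 (adjusted p = 0.00852) and Eif4a1 passed and Eef1b2 did not. Eif4a1 passed in the fit of these groups alone too. Eef2k lay the other way at 0.52 (SE 0.15, edgeR adjusted p = 0.111), with every repopulated library above every 5xFAD control library. It passed by DESeq2 and in the fit of these groups alone. Eif5a had 0.78 (SE 0.26, edgeR adjusted p = 0.14), or 0.46 without control 2, and it passed by DESeq2 (adjusted p = 0.0397). All 5 genes for eIF2 and initiator tRNA delivery had log2 fold changes below 0, between -0.54 and -0.39. None of them passed by edgeR's test over the 3 groups. Eif2s2 passed by DESeq2 and in the fit of these groups alone, and Eif2s3x was at 0.03 without the 3 libraries low in Y-linked transcripts. The comparison shares its 5xFAD control libraries with the one against WT, so a control library that is high or low moves both in opposite directions.

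The comparison of repopulated 5xFAD with WT microglia spans both genotype and the PLX3397 diet with repopulation, since no WT group was repopulated. These cannot be told apart here. In repopulated libraries 5 of the 61 genes were higher than in WT, 0 were lower and 56 did not pass (edgeR quasi-likelihood test, Benjamini-Hochberg), where 3.4% of all tested genes were higher and 0.784% lower, 4.18% together. The 5 were Eif3f at a log2 fold change of 0.86 (SE 0.13, edgeR adjusted p = 0.00077), Eef1a1 at 0.83 (SE 0.14, 0.00188), Eef1b2 at 0.73 (SE 0.16, 0.0143), Eef1g at 0.69 (SE 0.12, 0.00297) and Eif4b at 0.51 (SE 0.12, 0.0196). In each of these genes all 3 repopulated libraries were above all 4 WT libraries. At an unadjusted p under 0.05, 13 lay higher and 1 lower, against 8.45% and 6.61% of all tested genes. Ranges did not overlap for 14 genes with repopulated libraries above WT and for 0 below, against 9.13% and 6.82% of all. The median log2 fold change in repopulated over WT was 0.12 over the 61 genes and -0.02 over all, and 41 of the 61 lay above 0, against 46.6% of all.

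Eef1a1, Eef1g and Eif3f held this call under all 21 alternatives. Eef1b2 lost it under 3 of the 21, among them without repopulated 1 and with the replicate number as a block. Eif4b lost it under 6, among them without any 1 repopulated library, without WT 4 and with that block. Eef2 did not pass at 0.61 (SE 0.17, edgeR adjusted p = 0.066), although all repopulated libraries were above WT. It passed under 6 of 21 alternatives, among them DESeq2, the correction for GC content and length, and without control 2 or WT 1. Eef2k had -0.33 (edgeR adjusted p = 0.274) and overlapping ranges, and Eif1a had 0.09 (edgeR adjusted p = 0.898).

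**Figure D5:**
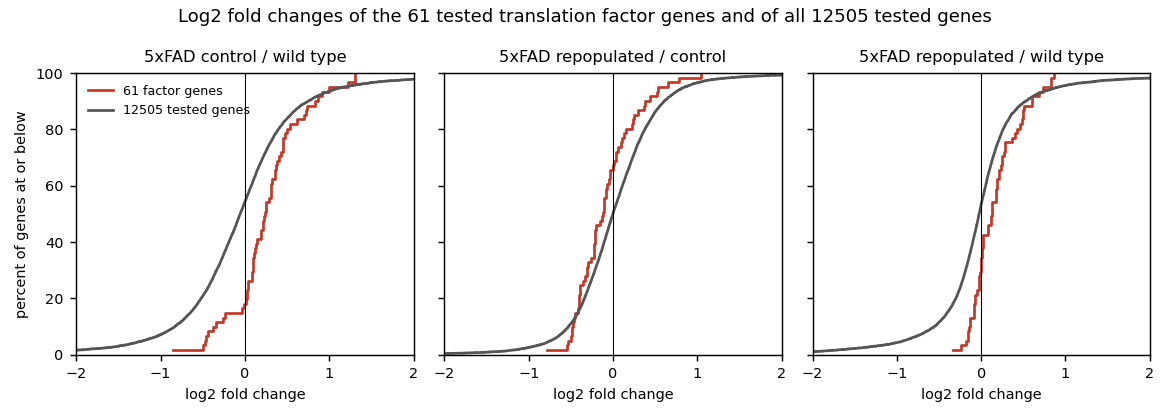
Cumulative percent of genes at or below each log2 fold change, for the 61 tested translation factor genes (red) and all 12505 tested genes (grey), in the 3 comparisons; values beyond 2 in either direction are not drawn. The red curve lies right of the grey one over most of the left panel, where the medians are 0.24 and -0.06.

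Some known TOP mRNAs in the set, Eef1a1, Eef1b2, Eef1d, Eef1g, Eef2, Eif3e, Eif3f, Eif3h and Eif4b, were named after their values were seen. The list may not be complete. Of its genes, Eef1d, Eef1g, Eif3e and Eif3h had no promoter window, so their starts were not searched. Among the rest only Eif3f was found above with the pyrimidine tract at the annotated start, and Eif2s3x, also found with it, is not listed. Of the 9 listed genes, 8 were higher in 5xFAD control than in WT, with a median log2 fold change of 0.83, where 10.1% of all tested genes were higher. By edgeR 0 of the 9 passed in repopulated over 5xFAD control (median -0.23), where 0.352% of all were higher and 0.216% lower. In repopulated over WT 5 were higher (median 0.61), against 3.4% of all. Because the comparisons share libraries and the genes were picked with values in view, these counts describe the 9 genes and test nothing about the class.

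Fold changes moved with base composition. Across the 61 genes Spearman's rho between log2 fold change and GC content of the longest transcript was -0.435 in 5xFAD control over WT, 0.72 in repopulated over 5xFAD control and 0.276 in repopulated over WT. Across 12226 genes it was -0.263, 0.436 and 0.135. Genes are not independent replicates, and the medians of GC content were close, at 49.8% in the 61 and 49.3% in all. With GC content and length corrected, 12 genes were higher and 2 lower in 5xFAD control than in WT, 11 of the 15 calls being kept, 0 passed in repopulated over 5xFAD control and 6 in repopulated over WT. The median log2 fold change of the 61 genes was then 0.15 in 5xFAD control over WT, -0.14 in repopulated over 5xFAD control and 0.04 in repopulated over WT, against -0.10, -0.01 and -0.08 over all genes.

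Genes that work beside these factors were read from 7 lists, to be set against the 10.1% of all tested genes that were higher in 5xFAD control than in WT and the 8.04% that were lower. In 5xFAD control against WT, termination and recycling factors had 2 of 10 higher and 0 lower, the release factor gene Etf1 at a log2 fold change of 0.65 and the recycling factor gene Denr at 0.49 (edgeR adjusted p = 0.0129 and 0.0208). Poly(A)-binding proteins and partners had 2 of 9 higher and 0 lower, Pabpc1 at 0.83 and its partner Paip1 at 0.77 (edgeR adjusted p = 0.000499 and 0.0212). Cytosolic aminoacyl-tRNA synthetases had 2 of 22 higher, Gars at 0.60 and Eprs at 0.62, and 1 lower, Farsa at -0.76 (edgeR adjusted p = 0.00664, 0.0092 and 0.0227), which is 9.09% higher and 4.55% lower and thus near the share of all genes. Ribosome biogenesis had 3 of 16 higher and 0 lower, the nucleolar protein genes Ncl at 0.77 and Npm1 at 0.92 and the pseudouridylation factor gene Nop10 at 0.82 (edgeR adjusted p = 0.0011, 0.00114 and 0.00962).

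Of the regulators, mTORC1 and the kinases of translation factors had 4 of 20 higher and 2 lower. The amino acid sensing GTPase gene Rragc was higher at 0.77, the scaffold gene Lamtor2 higher at 0.65, and Deptor, an inhibitor of mTOR, lower at -1.02 (edgeR adjusted p = 0.00217, 0.0159 and 0.00779). The other calls were Rptor, which encodes the defining subunit raptor of mTORC1, lower at -0.58, Pdcd4, an inhibitor of eIF4A, higher at 0.69, and the scaffold gene Lamtor4, higher at 0.57 (edgeR adjusted p = 0.0318, 0.0352 and 0.0184). The list of eIF2 kinases and stress response genes had 2 of 12 tested higher and 0 lower, Impact, an inhibitor of the kinase GCN2, at 0.68 and the double-stranded RNA sensor Eif2ak2 at 0.66 (edgeR adjusted p = 0.00939 and 0.0276). Mitochondrial translation factors had 0 of 11 higher and 1 lower, the initiation factor gene Mtif3 at -0.55 (edgeR adjusted p = 0.027). Median log2 fold changes of the 7 lists lay between -0.06 and 0.19, against 0.24 for the translation factor genes and -0.06 for all genes.

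In repopulated over 5xFAD control no gene of the 7 lists passed, the nearest being Ncl at -0.59 (edgeR adjusted p = 0.0738). In repopulated over WT only Pabpc1 of these lists passed, at 0.57 (SE 0.13, edgeR adjusted p = 0.0204). These lists hold between 9 and 22 tested genes, and no set test was run on them.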

How the data were processed

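Smart-Seq RNA libraries of sorted hippocampal microglia were analysed, 3 repopulated 5xFAD, 3 5xFAD control and 4 WT. For each gene the authors deposited estimated counts, TPM and FPKM, per the file headers. HISAT, Bowtie2 and GRCm38.p6 are named in the submitters' processing notes. Quantifier, tool versions and annotation: not given in the sources used here. Of the nonzero estimated counts 20.1% were not whole (tolerance 0.001), so reads shared by similar sequences may have been split. Counts were rounded, filtered with edgeR's filterByExpr and scaled by TMM. The deposited TPM served for levels between genes, and the FPKM values deposited by the authors were not used.

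The 3 groups were fitted in 1 quasi-likelihood model (edgeR 4.0.16, R 4.3.3, robust, prior count 0.125), with Benjamini-Hochberg adjustment over 12505 genes and a threshold of 0.05. The biological coefficient of variation was 27.3%. Means are given ± SD. Fold changes are set over the second-named group. The scripts were tested on simulated data. Alternatives were limma-voom 3.58.1, DESeq2 1.42.0, other scalings and filters, a fit of only the groups compared, omission of each library in turn or of the 3 low in Y-linked transcripts, the replicate number as a block, and offsets for GC content and length. A term for Y-linked transcript status was added after seeing the data. Replicate numbers do not pair the libraries by any label. Members, roles and lists were chosen with earlier results of these data known. The rule for values per library took, in each comparison, members that passed with groups that do not overlap (up to 6 with the largest log2 fold change in each direction), the 5 with the highest mean TPM and 15 core genes of the roles. In the pathway lists up to 3 genes with the smallest p were taken. Lamtor4, Pdcd4 and Rptor were added after their values were seen. Eef1d, Eef1e1, Eef1akmt4, Eif1ax, Eif2b4, Eif2s2, Eif2s3x, Eif3a, Eif3g, Eif3i, Eif3k, Eif4e3 and Eif5b were described outside it, after their values were seen.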

Additional observations from a re-analysis of the deposited data

How the results depend on the processing

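Of the alternatives run, those printed here moved a count by over 1.5 times or changed a call. In 5xFAD control over WT, 14 translation factor genes were higher; 9 were with the replicate block, 9 with the compared groups alone, 9 without the 3 libraries low in Y-linked transcripts (which leaves control 2 alone, assumed to vary like the other groups), and 9 to 16 with a library left out. The 1 lower gene was Eef2k, and 2 genes were lower with the GC content and length correction, Eef2k still among them. Without those 3 libraries Eef2k had a log2 fold change of -0.78, Eif4g1 of -1.16 and Eif5a of -1.54. These values rest on control 2 alone for 5xFAD control. Over all genes the 2265 calls became 1464 with the replicate block, 1202 without those 3 libraries and 1315 to 2910 with a library left out. In repopulated over 5xFAD control, where no gene passed, DESeq2 gave 2 higher and 4 lower, the compared groups alone 2 and 3, no filter 0 and 1, omission of those 3 libraries 2 higher, and leaving out a library up to 1 lower. The 71 calls over all genes became 698 by DESeq2, 125 by limma-voom, 166 with no filter, 125 with the 5 CPM filter, 25 with the replicate block, 630 with the compared groups alone, 388 without those 3 libraries, 1 with a term for Y-linked transcript status, and 0 to 328 with a library left out. In repopulated over WT, 5 higher genes became 3 with the replicate block and 3 to 6 with a library left out, and 523 calls over all genes became 289 without those 3 libraries and 284 to 688 with a library left out. As a share of summed TPM the genes held 0.623% in repopulated, 0.654% in 5xFAD control and 0.551% in WT libraries, and without Eef1a1 0.536%, 0.532% and 0.505% of counts, by construction. The cause of the other shifts was not tested. Deviations of same-numbered libraries from their group means had correlations of -0.105 to 0.071, so no strong shared deviation was seen. Differently numbered libraries were not compared in this way, and whether the numbers pair the libraries was not tested further. The block results are given for record. Among the named genes no fold change of a called gene changed sign.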
